A study of Mus musculus with 12 samples.

Results

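Mural cells are the pericytes and vascular smooth muscle cells that wrap the endothelium of blood vessels. Here they were sought among single-cell profiles of mouse adipose tissue by raw counts of 4 genes used as mural markers. A barcode was a member if Rgs5, Notch3, Myh11 and Kcnj8 together gave at least 3 UMIs with at least 2 of the 4 genes found, and if no UMI of Ptprc, Pecam1 or Pdgfra was present. UMIs are molecular barcodes by which PCR copies of the same RNA molecule are counted as 1. Barcodes were kept if they had between 700 and 22000 UMIs, between 200 and 6000 genes, and a mitochondrial share under 25%. Of the 126095 that passed, 155 were members, 89 of 57613 in epididymal fat (eWAT) and 66 of 68482 in inguinal fat (iWAT). The members were thus chosen by the measured UMIs of these 7 genes, whose levels are given as a description without a test.

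The study asked how a short course of rosiglitazone (Rosi), an agonist of the nuclear receptor PPARγ, alters the cells of adipose tissue in obesity. Male C57BL/6J mice given vehicle (WT-Veh), leptin-deficient Lepob/Lepob mice given vehicle (ob/ob-Veh) and Lepob/Lepob mice given rosiglitazone at 30 mg/kg (ob/ob-Rosi) were dosed by gavage for 3 days and were 12 weeks old. The stromal vascular fraction, the cells left once floating adipocytes are removed from digested fat, gave 1 10x Genomics library per mouse and depot, with 2 mice per group and depot and 12 libraries in all. Among these libraries rosiglitazone was given to Lepob/Lepob mice only, and the deposited libraries held 20132553 to 92475986 UMIs each. Groups are called by their labels throughout. The Lepob mutation is a point change after which Lep RNA is still made, so Lep levels check the genotype labels little. Set per 100 UMIs of Adipoq, Lep was highest under the label ob/ob-Rosi, at 259 and 361 in eWAT and 164 and 139 in iWAT. Under WT-Veh it was 30.5 and 79.3 in eWAT and 20.5 and 31.4 in iWAT, and under ob/ob-Veh 3.59 and 10.3 in eWAT and at most 33.3 in iWAT.

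Pericytes sit within the basement membrane of capillaries, are recruited there by PDGF-B from endothelial cells acting on the receptor Pdgfrb, and are marked in many tissues by the ATP-sensitive potassium channel made of Kcnj8 and Abcc9. Vascular smooth muscle cells form the wall of arteries and veins and contract through a cytoskeleton of smooth muscle actin (Acta2), myosin (Myh11) and their partners. Signalling through Notch3 maintains both kinds of cell. Adipose pericytes have been studied as a possible source of new fat cells.

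The requirement that Pecam1 be absent decided most of the membership. The count of the 4 marker genes alone was met by 1529 barcodes, 594 in eWAT and 935 in iWAT. Of these, 1264 (82.7%) held Pecam1, the adhesion molecule of endothelial cells, which was found in 10.9% of all kept barcodes. The share was 73.6% in eWAT and 88.4% in iWAT, and 953 of the barcodes were left out for Pecam1 alone. A further 256 held Ptprc, the common leukocyte antigen, and 199 held Pdgfra, the marker of fibroblasts and adipocyte progenitors, with overlap among the 3 genes. At the threshold, 23 members had exactly 3 UMIs of the 4 genes, 46 barcodes just outside had 2 UMIs from 2 genes, and 121 others had at least 3 UMIs from 1 gene only. Among the members, the median was 7 UMIs of the 4 genes and the highest value 89. Rgs5, a brake on G protein signalling, was found in 140 of the 155 members, Notch3 in 112, Kcnj8 in 76 and Myh11, the smooth muscle myosin heavy chain, in 73.

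**Figure D1:**
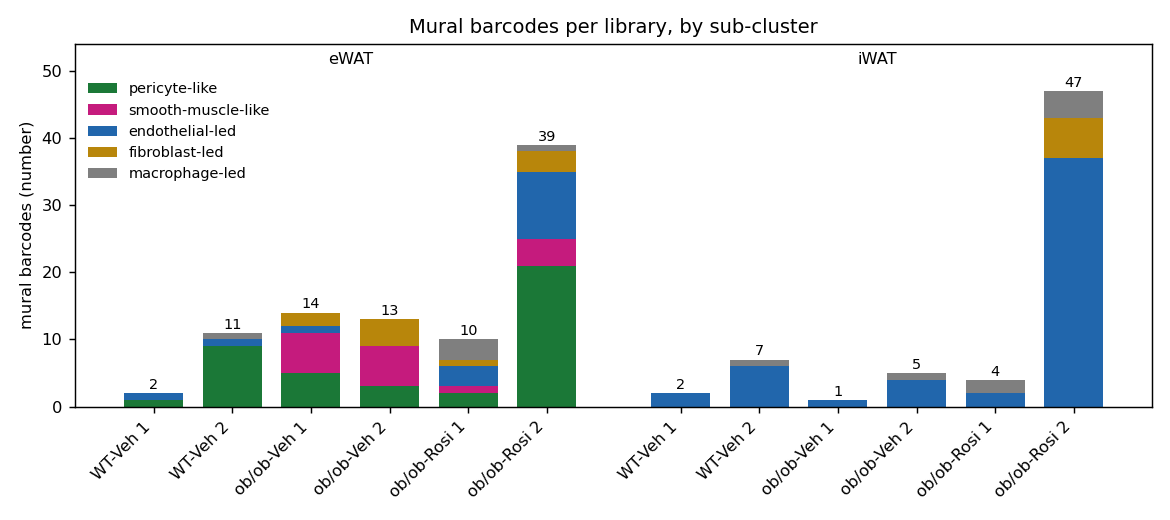
Number of member barcodes in each of the 12 libraries (bars, y axis in barcodes), stacked by the 5 sub-clusters of the members. The 2 tallest bars are the libraries labelled ob/ob-Rosi replicate 2, with 39 barcodes in eWAT and 47 in iWAT, and pericyte-like and smooth-muscle-like barcodes stand in the eWAT bars only.

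Members were few in every library. In eWAT the WT-Veh libraries held 2 and 11 of them, the ob/ob-Veh libraries 14 and 13, and the ob/ob-Rosi libraries 10 and 39. In iWAT the numbers were 2 and 7, 1 and 5, and 4 and 47. The libraries labelled ob/ob-Rosi replicate 2 of the 2 depots gave 86 of the 155 members (55.5%), as the plot of members by library shows. Members had a median of 2374 UMIs, from 709 to 13218. No barcode sequence was shared between members of different libraries. Scrublet scores marked 24 of the 155 members as likely doublets, and doublets were kept.

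The 155 members were clustered on 2000 variable genes, without leaving out the rule genes, which gave 5 sub-clusters. Each was named by the marker list with most genes among its 10 leading genes, those of largest fold against the other members. Rule genes counted there, and Myh11 was among the 10 of the smooth-muscle-like set. A set of 41 barcodes was led by pericyte markers (pericyte-like) and 17 were led by contractile genes (smooth-muscle-like). By their leading genes the other 97 members went against the label. Of these, 68 were led by endothelial genes (Gpihbp1, Aqp1, Cldn5, Kdr and Flt1 among the first 10), 16 by fibroblast genes such as Dcn and 13 by macrophage genes. The endothelial-led barcodes held pericyte list genes as well, as given below. All 58 pericyte-like and smooth-muscle-like barcodes (37.4% of the members) came from eWAT, and 52 of the 66 iWAT members were endothelial-led. Doublet scores marked 53.8% of the macrophage-led, 19.5% of the pericyte-like, 12.5% of the fibroblast-led, 10.3% of the endothelial-led and 0% of the smooth-muscle-like barcodes. At a lower resolution of 0.3 the macrophage-led barcodes joined the pericyte-like ones, and at 1.0 the endothelial-led ones split into 36 and 32. The sub-clusters were drawn from the same counts of these barcodes and named by the same lists. The levels that follow thus describe them and are not tests between them or of the label.

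The 41 pericyte-like barcodes carried the genes of the potassium channel and the PDGF receptor. They held 79810 UMIs, and levels are given in CPM, the UMIs of a gene per 1000000 UMIs of the set, with 95% Poisson intervals, which cover counting error only. The 2 comparison sets were 17274 stromal barcodes with Pdgfra at 2 UMIs or more and 6233 endothelial barcodes with Pecam1, Cdh5 and Cldn5 at 3 UMIs or more in sum and at least 2 of them found. Both sets left out barcodes in which the marker genes of the rule together gave 3 UMIs or more. Barcodes rich in mural RNA were thus removed from them. Higher pericyte and contractile levels in members than in these sets, and the 2-fold counts below, are therefore partly set by the selection. Abcc9 (chr6:142587862-142702315 in GRCm38), the regulatory subunit that pairs with Kcnj8, stood at 1303 CPM (1065 to 1579) against 8.79 in stromal and 19.5 in endothelial barcodes. Pdgfrb stood at 1228 CPM (997 to 1496), against 162 and 19.9. Mfge8, a secreted adaptor for the uptake of dying cells, reached 2869 CPM (2510 to 3266), against 227 and 294. Abcc9 and Mfge8 were found in 35 of the 41 barcodes and Pdgfrb in 34.

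Ndufa4l2 and Cox4i2, hypoxia-linked subunits of the respiratory chain, stood at 1165 CPM (940.5 to 1428) and 539 CPM (390 to 726). Agtr1a, the angiotensin II receptor, stood at 526 CPM (379 to 711), against 39.5 in stromal and 7.55 in endothelial barcodes. Gucy1a1, a subunit of the nitric oxide receptor, stood at 589 CPM (433 to 783), against 5.66 and 9.94. Of 14 pericyte list genes that were not in the rule and had at least 10 UMIs, 13 were at least 2-fold above both comparison sets, where 246 of 1510 genes of that depth (16.3%) were. Plin2, which coats lipid droplets, was also high, at 1717 CPM (1441 to 2029) against 229 and 668. The chemokine Ccl11 stood at 702 CPM (530 to 911), against 792.5 CPM in the stromal barcodes. The endothelial list without Pecam1 gave 0.752 UMIs per 1000 in the pericyte-like barcodes, against 15.2 in endothelial and 0.134 in stromal barcodes. RNA of other cell types was present too. The macrophage list gave 6.87 UMIs per 1000, above the stromal (2.35) and endothelial (4.96) sets, with 3 of 16 genes at least 2-fold above both, and the fibroblast list gave 6.25, against 52.0 and 2.03. The adipocyte list gave 0.915, against 0.0582 and 0.740, and both of its genes with at least 10 UMIs were 2-fold above both sets. Car3, an adipocyte carbonic anhydrase, was the first leading gene of the sub-cluster, at 426 CPM (295 to 595) from 3 barcodes.

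The 17 smooth-muscle-like barcodes were set apart by the contractile genes. Acta2 stood at 9178 CPM (8390 to 10020) and was found in 17 of 17 barcodes, against 451 CPM from only 3 of 41 pericyte-like barcodes and 7.79 and 6.86 CPM in stromal and endothelial barcodes. Tagln, an actin-binding protein of smooth muscle, stood at 7155 CPM (6461 to 7902), and Myl9, the regulatory light chain of smooth muscle myosin, at 2888 CPM (2454 to 3376). The tropomyosins Tpm1 and Tpm2 reached 3035 CPM (2589 to 3535) and 2649 CPM (2234 to 3118). Among the 29 contractile genes not in the rule, all 16 with at least 10 UMIs were at least 2-fold above both comparison sets, where 255 of 931 genes of that depth (27.4%) were. The most restricted genes were sparse. Myocd, the coactivator that drives the contractile programme, gave 4 UMIs, the calcium pump regulator Pln 9, Cnn1 7 and Actg2 7, with 0 of each in pericyte-like and endothelial-led barcodes.

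Smooth-muscle-like barcodes also differed from pericyte-like ones outside the cytoskeleton. The adhesion molecule Mcam stood at 717 CPM (510 to 981) against 37.6, the growth factor Pdgfa at 773 CPM (557 to 1044) against 113, and the neuropeptide Y receptor Npy1r at 441 CPM (283 to 657) against 12.5. Elastin (Eln) stood at 938 CPM (698 to 1233) against 25.1. Kcnj8 and Abcc9 ran the other way, at 18.4 and 129 CPM against 789 and 1303. These levels also carry the mix of groups. The ob/ob-Veh libraries of eWAT gave 6 and 6 of the 17 smooth-muscle-like barcodes, and the ob/ob-Rosi ones 2 and 21 of the 41 pericyte-like barcodes. Eln was much higher in ob/ob-Veh replicate 1 than in the other libraries, as given below. Mitochondrial UMIs made up a median of 10.8% in smooth-muscle-like barcodes, 5.10% in pericyte-like and 3.57% in endothelial-led ones.

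**Figure D2:**
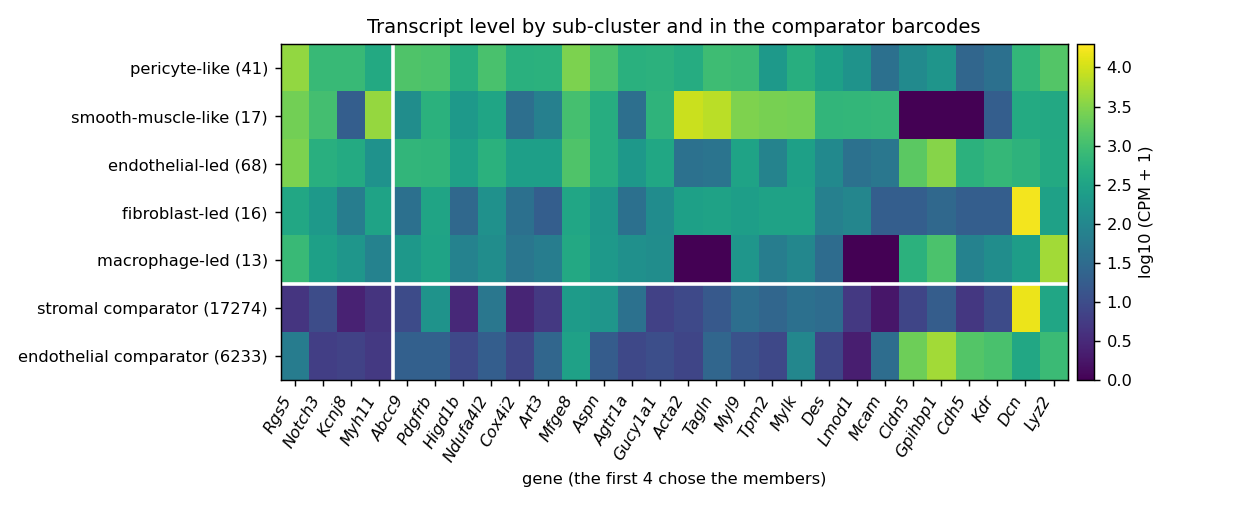
Heat map of transcript level as log10(CPM + 1), in colour, for 28 genes (x axis) in the 5 sub-clusters of the members and the stromal and endothelial comparison sets (y axis, with the number of barcodes). Acta2, Tagln and Tpm2 are brightest in the smooth-muscle-like line, Abcc9 and Pdgfrb in the pericyte-like line, and Cldn5 and Gpihbp1 in the endothelial-led line and the endothelial comparison set.

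The promoters of the contractile genes were searched for the CArG box, the site read by serum response factor, in RefSeq windows of GRCm38.p6 from 250 bases before to 50 after each start site. The motif is its own reverse complement, so both strands are covered at once. An exact box stood in 535 of 32851 windows (1.63%) and a box with at most 1 mismatch in 6936 (21.1%). Of 24 contractile genes matched to a window, 12 had a box with at most 1 mismatch and 2 an exact one, Myl9 and Ldb3, where 23.8% and 1.81% of all genes with a window did. Of 16 pericyte list genes, 3 (18.8%) had one with 1 mismatch and 0 an exact one. A match describes letters in a window and is not shown to be a site in use. The boxes nearest to the start of Acta2, the exact box of Myl9 and the farther box of Tpm1 are shown, since these genes were high in the smooth-muscle-like barcodes and Acta2 and Tpm1 also changed between groups. Capitals mark the box, and each run reads 5′ to 3′ along the gene's strand.
Acta2, minus strand, chr19:34255438-34255467, 1 mismatch: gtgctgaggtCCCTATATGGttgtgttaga
Acta2, minus strand, chr19:34255388-34255417, 1 mismatch: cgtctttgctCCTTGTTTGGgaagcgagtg
Myl9, plus strand, chr2:156775293-156775322, exact: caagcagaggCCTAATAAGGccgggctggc
Tpm1, minus strand, chr9:67049415-67049444, 1 mismatch: gctcgggtccCCATATATAGtcatatccac

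The 68 endothelial-led barcodes held both programmes at once. Gpihbp1, which anchors lipoprotein lipase on capillary endothelium, stood at 3298 CPM (3039 to 3573) against 4968 in endothelial and 17.8 in stromal barcodes. Cldn5, a tight junction protein, stood at 1630 CPM (1449 to 1826) against 2237 and 6.86. In the same barcodes Abcc9 stood at 666 CPM (553 to 796) and Pdgfrb at 639 CPM (528 to 766), against 19.5 and 19.9 in the endothelial set. Of 15 pericyte list genes with at least 10 UMIs, 14 were at least 2-fold above both comparison sets, where 174 of 3493 genes (4.98%) were. The endothelial set lacks barcodes rich in the marker genes of the rule, so this does not show a difference from endothelial barcodes at large. Acta2 was at 38.5 CPM, from 3 barcodes. The rule left out Pecam1 but no other endothelial gene, and how many of these barcodes held RNA of more than 1 cell was not tested.

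**Figure D3:**
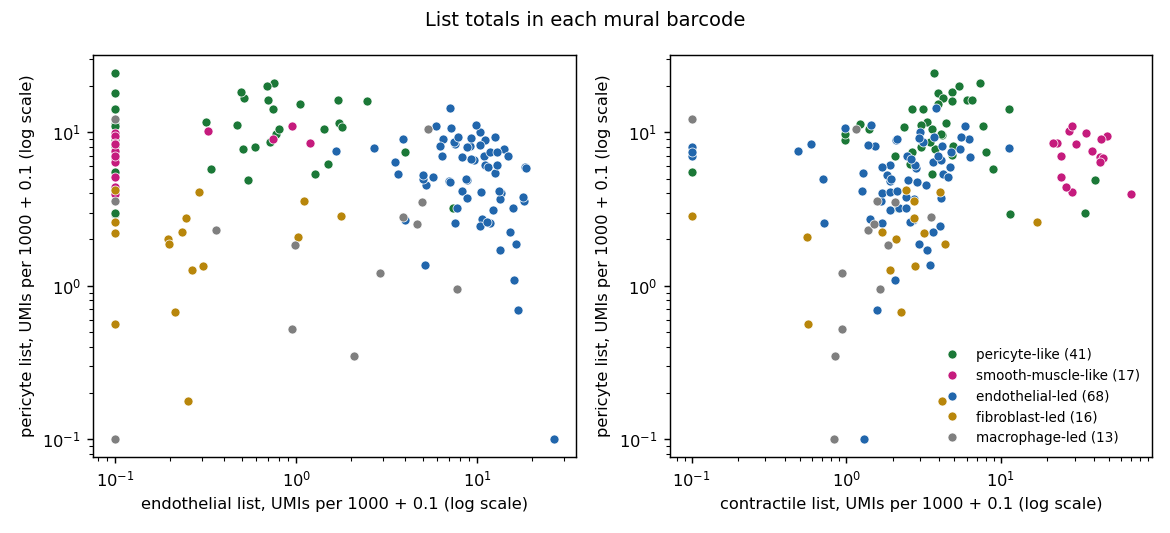
Each point is 1 member barcode, coloured by sub-cluster, on log axes of UMIs per 1000 plus 0.1, with the rule genes left out of every list. The y axis is the pericyte list in both panels, and the x axis is the endothelial list on the left and the contractile list on the right. Smooth-muscle-like barcodes lie at the right of the right panel, with a median of 30.6 contractile UMIs per 1000, and endothelial-led barcodes at the right of the left one, with a median of 9.61 endothelial UMIs per 1000.

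Genes of vessel signalling were thin in these barcodes. Of 25 Notch pathway genes not in the rule, 1 reached 10 UMIs in the pericyte-like, 3 in the smooth-muscle-like and 12 in the endothelial-led barcodes. Heyl, a target of Notch3, gave 100.2 CPM (43.3 to 198) in pericyte-like, 92.0 (29.9 to 215) in smooth-muscle-like and 88.1 (50.4 to 143) in endothelial-led barcodes, with intervals that overlap, against 6.85 and 2.35 in stromal and endothelial barcodes. The ligand Pdgfb lay with the endothelium, at 298.5 CPM in endothelial and 149 CPM (98.0 to 216) in endothelial-led barcodes, and at 25.1 CPM (3.03 to 90.5) in pericyte-like ones. The endothelin receptors split the same way. Ednra stood at 125 CPM (60.1 to 230.4) in pericyte-like and 147 CPM (63.5 to 290) in smooth-muscle-like barcodes against 27.5 in endothelial-led ones, and Ednrb at 25.1 and 73.6 against 352 CPM (271 to 449.9). Of the basement membrane list, 2 of 17 genes in pericyte-like, 6 of 12 in smooth-muscle-like and 3 of 19 in endothelial-led barcodes were at least 2-fold above both comparison sets, where 16.3%, 27.4% and 4.98% of all genes of that depth were. Col4a1, a main chain of collagen IV, stood at 2130 CPM (1822 to 2475) in pericyte-like barcodes and at 2057 CPM in stromal ones.

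Over all members of a library, the pericyte list without its rule genes gave 2.66 to 7.92 UMIs per 1000. It was above the stromal set (0.781 to 2.02) and the endothelial set (0.470 to 0.958) in 12 of 12 libraries. Members were chosen for the marker genes of the rule, and barcodes rich in them were left out of both sets. This order was thus largely fixed by the selection and is no test of the label. The rule held little of the series' contractile RNA. In eWAT the members held 569 of 5838 Acta2 UMIs (9.75%) and 493 of 8433 Tagln UMIs (5.85%) found in all kept barcodes. In iWAT they held 3 of 1375 Acta2 UMIs (0.218%) and 10 of 2037 Tagln UMIs (0.491%). Of 335 eWAT barcodes with at least 2 UMIs of both Acta2 and Tagln, 21 were members and 128 held Pdgfra, and in iWAT there were 28 such barcodes, of which 0 were members. The eWAT WT-Veh libraries held 62 and 34 of these barcodes and 0 members among them. Of barcodes with at least 2 UMIs of Rgs5 and 1 of Abcc9, 362 of 432 in eWAT and 634 of 689 in iWAT also held Pecam1.

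Differences between groups in the share of kept barcodes that were members were within the spread between mice. It was 0.0136% (exact 95% interval 0.00165 to 0.0491) and 0.170% (0.0849 to 0.304) in the eWAT WT-Veh libraries, 0.153% (0.0835 to 0.256) and 0.168% (0.0893 to 0.287) in ob/ob-Veh and 0.106% (0.0508 to 0.195) and 0.387% (0.276 to 0.529) in ob/ob-Rosi. In iWAT it ran from 0.0117% (0.00142 to 0.0423) in WT-Veh replicate 1 to 0.269% (0.197 to 0.357) in ob/ob-Rosi replicate 2. The 3 groups overlap in both depots. Over both depots, with labels permuted within depot, ob/ob-Veh lay 0.0343 percentage points above WT-Veh (exact permutation p = 0.722, two-sided) and ob/ob-Rosi 0.0999 above ob/ob-Veh (exact permutation p = 0.444). A p of 0.0556 is the smallest that 4 libraries against 4 can give here. With every barcode thinned to 700 UMIs before the rule was applied, 167 barcodes were members. Thinning removes UMIs of the excluded genes as well as of the marker genes.

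The number of members was also set against the endothelial barcodes of the same library, and no difference in this ratio passed the adjusted test. These endothelial barcodes are the set defined above, without those rich in the marker genes of the rule. Per 100 endothelial barcodes there were 0.722 and 3.48 members in WT-Veh, 10.1 and 4.21 in ob/ob-Veh and 3.53 and 7.39 in ob/ob-Rosi eWAT. In iWAT these ratios were 0.306 and 0.909, 1.49 and 1.37, and 0.297 and 3.98. In both depots the 2 ob/ob-Veh values lie above both WT-Veh values, and the ob/ob-Rosi values overlap with ob/ob-Veh. The mean log2 ratio was 1.74 higher in ob/ob-Veh (exact permutation p = 0.0556, the smallest possible, and 0.222 when adjusted over 16 such comparisons by Benjamini-Hochberg). It was -1.88 in iWAT relative to eWAT (exact permutation p = 0.0370, adjusted 0.222), where 0.00926 is the smallest p. The depot difference passed 0.05 in 6 of 12 fits that left out 1 library. It missed it under a stricter rule (p = 0.102 by exact permutation), after removing barcodes with 1 of 8 other cell type genes (p = 0.0833) and after thinning (p = 0.194). The stricter rule kept 59 members in all libraries and the removal only 8.

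The contractile part of the members' RNA was highest in the eWAT libraries labelled ob/ob-Veh. The contractile list without Myh11 took 0.148% and 0.336% of the members' UMIs in WT-Veh, 1.68% and 2.01% in ob/ob-Veh, and 0.353% and 0.731% in ob/ob-Rosi. In iWAT the 6 libraries lay between 0.167% and 0.271%, with no group apart. In eWAT the ob/ob-Veh libraries lie above the 4 others without overlap, but with libraries of at least 5 members over both depots the design gives no p below 0.167, which was the value for both ob/ob-Veh against WT-Veh (0.792 percentage points higher) and ob/ob-Rosi against ob/ob-Veh (-0.655 percentage points) in the exact permutation test. The first difference was 0.0762 without WT-Veh eWAT replicate 2, which leaves iWAT alone, and 1.51 without either the WT-Veh or the ob/ob-Veh library of iWAT, which leaves eWAT alone; the second was -1.30 in eWAT alone. iWAT lay -0.672 percentage points from eWAT (exact permutation p = 0.0556, the smallest possible, and 0.0370 without a minimum of members, an alternative added after seeing the data). The number of smooth-muscle-like barcodes moved with these shares, at 0 and 0, 6 and 6, and 1 and 4 in the eWAT libraries. Median mitochondrial UMIs were 5.79% and 12.2% in the ob/ob-Veh eWAT members and 3.38% to 4.63% in the other 4 eWAT libraries. The part of either in the contractile share was not tested.

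RNA of other cell types moved between groups as well. The endothelial list gave 14.1 and 3.80 UMIs per 1000 in the eWAT members of WT-Veh, 0.264 and 0.353 in ob/ob-Veh and 2.79 and 3.21 in ob/ob-Rosi, so ob/ob-Veh was lowest without overlap. In iWAT it ran from 4.15 to 8.44. The macrophage list gave 4.20 and 16.7, 1.21 and 1.69, and 14.1 and 6.47 per 1000 in eWAT, again lowest in ob/ob-Veh. It was lowest there in the stromal set too (1.01 and 2.08, against 4.48 to 8.15 in the 4 other libraries). The fibroblast list ran the other way, with 3.21 and 3.77, 12.8 and 25.8, and 12.6 and 11.6 per 1000 in the eWAT members. The endothelial measure was added after seeing the data, and its exact permutation p was 0.167 in each group contrast, the smallest possible.

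**Figure D4:**
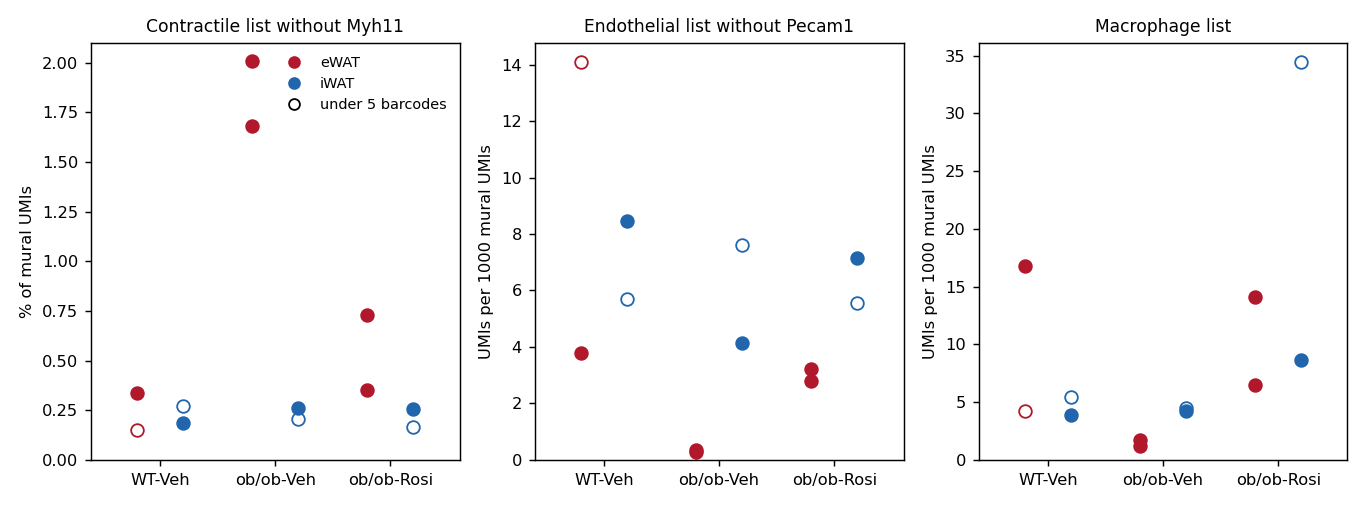
Share of the members' UMIs from the contractile list (left, percent), and UMIs per 1000 from the endothelial list (middle) and the macrophage list (right), for each library by group and depot, with open points for libraries of under 5 members. The 2 ob/ob-Veh eWAT points are highest in the left panel, at 1.68% and 2.01%, and lowest in the other panels.

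Genes were tested between groups on UMI counts summed over the members of a library, in libraries with at least 5 members. This left 5 eWAT libraries, with 2 residual degrees of freedom and WT-Veh represented by replicate 2 alone, whose spread was taken to be that of the 2 other groups. A gene was called if edgeR's quasi-likelihood test gave it an adjusted p (Benjamini-Hochberg) no higher than 0.05 and it changed by at least 1.1-fold. The test shares its estimate of spread across genes. Its small p-values thus rest largely on that shared estimate and do not measure how far a gene varied between mice. In ob/ob-Veh relative to WT-Veh, 71 genes were higher (5.49%) and 48 lower (3.71%) of 1294 tested (9.2% called). In ob/ob-Rosi relative to ob/ob-Veh, 36 were higher (2.78%) and 68 lower (5.26%; 8.04% called), and 52 and 46 with library size in place of TMM scaling. Both contrasts share the ob/ob-Veh libraries, so their values are not independent. Both also rest on ob/ob-Veh replicate 1. Without it, 0 genes were called in the first contrast, with 112 higher and 65 lower before adjustment (p under 0.05), and 1 in the second, with 63 and 88. Without ob/ob-Rosi replicate 2 they called 75 and 27 genes, and without ob/ob-Veh replicate 2 the second called 58. DESeq2 called 32 and 18 genes with all 5 libraries.

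In ob/ob-Veh relative to WT-Veh, 8 of 15 contractile genes tested rose and 0 fell, where 5.49% and 3.71% of all genes did, with a median log2 change of 2.80 against 0.03 over all genes. In ob/ob-Rosi relative to ob/ob-Veh, 0 rose and 9 fell, where 2.78% and 5.26% of all genes did, with a median of -2.13 against 0.04. Acta2 (chr19:34241090-34255590 in GRCm38) gave 0 and 0 CPM in the WT-Veh members, 4002 and 4365 in ob/ob-Veh and 279 and 940.4 in ob/ob-Rosi, so the 3 groups do not overlap. Against the floor of 3 UMIs in the tested WT-Veh library it was at least 54.8-fold higher in ob/ob-Veh, and it fell by 2.85 ± 0.49 (SE, taken from the test statistic) on the log2 scale in ob/ob-Rosi (adjusted p = 1.41e-06 in edgeR, n = 2 against 2 libraries). The 2 ob/ob-Veh libraries carried 479 Acta2 UMIs and the 2 ob/ob-Rosi libraries 90. The members of the WT-Veh libraries lacked Acta2, while all kept barcodes of those libraries held 670 and 387 Acta2 UMIs. Myh11, a contractile gene of the rule, gave 10 UMIs in the tested WT-Veh members, 250 in ob/ob-Veh and 35 in ob/ob-Rosi. All 17 smooth-muscle-like barcodes held Myh11. The contractile changes thus cannot be told apart from which contractile barcodes the rule let in. Over all kept eWAT barcodes Acta2 stood at 15.9 and 10.4 CPM in WT-Veh, 28.3 and 28.4 in ob/ob-Veh and 14.6 and 27.0 in ob/ob-Rosi.

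The partners of Acta2 were also highest in the ob/ob-Veh members of eWAT. Tagln gave 0 and 308 CPM in WT-Veh, 2309 and 3439 in ob/ob-Veh and 139.7 and 1583 in ob/ob-Rosi. It rose by 3.33 ± 0.71 (adjusted p = 1.21e-04 in edgeR) and fell by 1.79 ± 0.47 (adjusted p = 0.00470 in edgeR) in the 2 contrasts. The fall ran from -4.63 (without ob/ob-Rosi replicate 2) to -0.97 (without ob/ob-Rosi replicate 1) when 1 library was left out, and it was not called without ob/ob-Rosi replicate 1 or either ob/ob-Veh library. Over all kept eWAT barcodes, of whose Tagln UMIs the members held 5.85%, the order was another, with 39.6 and 27.4 CPM in WT-Veh, 14.2 and 24.0 in ob/ob-Veh and 23.9 and 51.9 in ob/ob-Rosi. Tpm1 gave 247 and 76.9, 1517 and 1381, and 349 and 389.9 CPM. With only 3 UMIs in the tested WT-Veh library its ratio was 18.7 (counting interval 6.27 to 91.4). Mylk, the kinase that starts contraction, gave 0 and 231, 1495 and 1396, and 245 and 401 CPM and fell by 2.26 ± 0.51 in ob/ob-Rosi (adjusted p = 7.23e-04 in edgeR). For each of these 3 genes the ob/ob-Veh libraries lie above the other 4. Mustn1, a small nuclear protein of muscle, fell by 2.52 ± 0.62 and Synpo2, which binds actin, by 2.55 ± 0.77 in ob/ob-Rosi (adjusted p = 0.00189 and 0.0165 in edgeR). The fall of Mustn1 ran from -7.66 (without ob/ob-Rosi replicate 2) to -1.91 (without ob/ob-Rosi replicate 1) and was not called without the latter or either ob/ob-Veh library.

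Of 14 pericyte genes tested, 0 rose and 1 fell in ob/ob-Veh (5.49% and 3.71% of all genes), and 1 rose and 0 fell in ob/ob-Rosi (2.78% and 5.26% of all genes), and Cox4i2 was the gene in both. It gave 0 and 359 CPM in WT-Veh, 66.0 and 14.7 in ob/ob-Veh and 139.7 and 470.2 in ob/ob-Rosi, with 4 UMIs in the ob/ob-Veh members in all. Its changes were -3.12 ± 0.90 and 2.99 ± 0.77 on the log2 scale (adjusted p = 0.00921 and 0.00367 in edgeR). With 1 library left out, the second ran from 1.54 (without ob/ob-Rosi replicate 2) to 4.17 (without ob/ob-Veh replicate 1), and neither was called without either ob/ob-Veh library or without ob/ob-Rosi replicate 2. The first WT-Veh library overlaps with ob/ob-Veh, at 0. Abcc9 gave 988 and 589.9, 726 and 191, and 454 and 619 CPM, and Pdgfrb 247 and 744, 638 and 382, and 734 and 895. Neither gene was called, with log2 changes of -0.28 and -0.44 in ob/ob-Veh and 0.12 and 0.52 in ob/ob-Rosi. The groups overlap for Abcc9, while for Pdgfrb both ob/ob-Rosi libraries lie above both ob/ob-Veh ones and WT-Veh overlaps with either. Of 11 ion channel and vasoactive genes, Pde3a, which breaks down cyclic AMP and GMP, rose in ob/ob-Veh with a ratio of 14.8 (counting interval 2.51 to 597), and Pde3a and the calcium pump Atp2a2 fell in ob/ob-Rosi by 2.34 ± 0.67 and 2.21 ± 0.61 (adjusted p = 0.0104 and 0.00776 in edgeR). Of 2 Notch and 8 PDGF, angiopoietin, S1P and VEGF pathway genes tested, edgeR called 0 in either contrast. At an unadjusted p under 0.05, 0 Notch genes passed in either, and among the PDGF group 2 were lower in ob/ob-Veh and 1 was higher in ob/ob-Rosi.

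**Figure D5:**
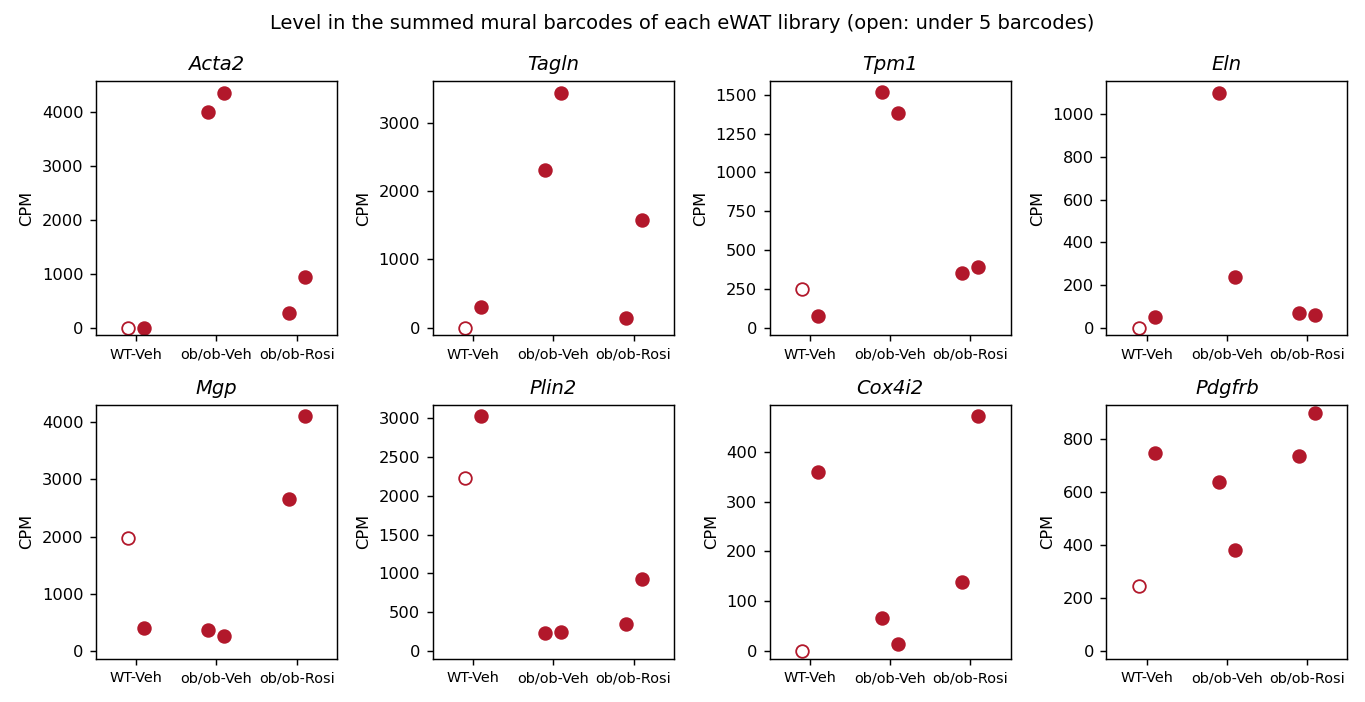
CPM of 8 genes (Acta2, Tagln, Tpm1, Eln, Mgp, Plin2, Cox4i2 and Pdgfrb; 1 panel each) in the members of the 6 eWAT libraries by group, 1 point per library. Acta2, Tagln, Tpm1 and Eln are highest in both ob/ob-Veh libraries, Mgp is highest in both ob/ob-Rosi libraries, and for Pdgfrb WT-Veh spans the ob/ob-Veh values.

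Of 27 fibrillar matrix genes tested in eWAT, 7 rose and 0 fell in ob/ob-Veh, where 5.49% and 3.71% of all genes did, and 1 rose and 3 fell in ob/ob-Rosi, where 2.78% and 5.26% of all genes did. Eln (chr5:134702593-134747323), the elastic fibre protein of arteries, gave 0 and 51.3 CPM in WT-Veh, 1099 and 235 in ob/ob-Veh and 69.9 and 57.3 in ob/ob-Rosi. Its ratio in ob/ob-Veh was 11.3 (counting interval 3.02 to 95.5), and it fell by 3.54 ± 0.69 in ob/ob-Rosi (adjusted p = 3.18e-05 in edgeR). Without ob/ob-Veh replicate 1 the log2 changes were 2.28 and -2.08, and neither was called without that library or without ob/ob-Rosi replicate 2. Both ob/ob-Veh libraries were highest, though they differ from each other by more than 4-fold. Within the smooth-muscle-like barcodes alone, Eln stood at 2319 and 182 CPM in the 2 ob/ob-Veh libraries and at 282 CPM in ob/ob-Rosi replicate 2. Dcn, a proteoglycan of fibroblasts, gave 741 and 436, 5475 and 12609, and 2550.0 and 3257 CPM, and the fibroblast list had 4 of 9 genes higher in ob/ob-Veh. Fibroblast-led barcodes numbered 0 and 0, 2 and 4, and 1 and 3 in these libraries, and Dcn was at -0.25 (adjusted p = 0.880 in edgeR) when only pericyte-like and smooth-muscle-like barcodes were counted.

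Matrix Gla protein (Mgp, chr6:136872435-136875823), an inhibitor of vessel calcification, was the 1 gene of this list called higher in ob/ob-Rosi than in ob/ob-Veh in eWAT. Over both depots Mgp, Fbn1, Cyr61 and Bgn were called higher and Timp3 lower, of 28 tested, where 3.86% and 2.14% of all genes were. In eWAT Mgp gave 1977 and 410.4 CPM in WT-Veh, 374 and 265 in ob/ob-Veh and 2655 and 4106 in ob/ob-Rosi. The ob/ob-Rosi libraries lie above all 4 others. Mgp rose by 3.25 ± 0.52 relative to ob/ob-Veh (adjusted p = 1.78e-07 in edgeR) and by 2.99 ± 0.69 relative to the tested WT-Veh library (adjusted p = 0.00875 in edgeR). Among the pericyte-like and smooth-muscle-like barcodes its change was 3.52 ± 0.58 (adjusted p = 7.12e-07 in edgeR) relative to ob/ob-Veh and 2.45, not called (adjusted p = 0.142 in edgeR), relative to WT-Veh, in a fit with 1 residual degree of freedom where ob/ob-Rosi and WT-Veh were 1 library each. Within the pericyte-like barcodes Mgp stood at 640.5 CPM in WT-Veh replicate 2, 786 CPM in ob/ob-Veh replicate 1 and 3953 CPM in ob/ob-Rosi replicate 2, the 3 libraries with at least 5 of them. Mgp is abundant in stromal cells too, at 3355 CPM in the eWAT stromal set, and the change of members minus that of stromal barcodes was -1.26 ± 0.69 on the log2 scale and did not pass the test. Between WT-Veh and ob/ob-Veh the same difference was 4.09 ± 0.91 (adjusted p = 0.00380 in edgeR).

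Of 19 genes tested from the list of PPAR targets and fat metabolism, 1 rose (Sult1e1) and 9 fell in ob/ob-Veh, where 5.49% and 3.71% of all genes did, with a median of -2.01 against 0.03 over all genes. In ob/ob-Rosi 2 rose and 1 fell, where 2.78% and 5.26% of all genes did, with a median of 1.08 against 0.04. Plin2 (chr4:86648386-86670060) gave 2224 and 3026 CPM in WT-Veh, 242 and 249.8 in ob/ob-Veh and 349 and 929 in ob/ob-Rosi, so the groups do not overlap. It fell by 3.49 ± 0.58 in ob/ob-Veh (adjusted p = 3.53e-07 in edgeR). In ob/ob-Rosi it was -2.22 ± 0.55 from WT-Veh (adjusted p = 0.0196 in edgeR), and -0.75 and not called (adjusted p = 1) among pericyte-like and smooth-muscle-like barcodes alone. Fabp4, a fatty acid carrier of endothelium, macrophages and adipocytes, gave 53620.0 and 48629 CPM, 6773 and 11492, and 13274 and 30069. It fell by 2.30 ± 0.68 in ob/ob-Veh (adjusted p = 0.0126 in edgeR), a call lost whichever of the 4 ob/ob libraries was left out (adjusted p = 0.0628 to 0.318 in edgeR). It was not called in ob/ob-Rosi (1.08, adjusted p = 0.285 in edgeR). Pparg itself was thin, with 9 UMIs in the tested WT-Veh, 3 in the ob/ob-Veh and 8 in the ob/ob-Rosi libraries, and was not called.

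In eWAT members the endothelial and macrophage RNA given above was lowest in ob/ob-Veh too, and its part in the changes of fat genes was not tested. In the fit of pericyte-like and smooth-muscle-like barcodes alone, which was added after seeing the data and has 1 residual degree of freedom over 4 libraries, 25 genes were higher and 13 lower in ob/ob-Veh, and 11 higher and 18 lower in ob/ob-Rosi. Of these, 30 of 38 and 22 of 29 were among the calls over all members. Plin2 stayed called in ob/ob-Veh at -2.33 (adjusted p = 0.00370 in edgeR) and Angptl4, an inhibitor of lipoprotein lipase, at -2.55 (adjusted p = 0.00500 in edgeR). Fabp4, Cd36 and Lpl did not, at -1.69, -1.07 and -0.17 (adjusted p = 0.697, 0.349 and 0.947 in edgeR). Macrophage list genes changed in this fit too, Lgals3 by -4.63 and Lyz2 by -2.29 in ob/ob-Veh, and by 4.79 and 2.20 in ob/ob-Rosi. The mix of the 2 sub-clusters also differed. Pericyte-like and smooth-muscle-like barcodes numbered 9 and 0 in the WT-Veh library, 5 and 6, and 3 and 6, in ob/ob-Veh, and 21 and 4 in ob/ob-Rosi. The part of either in this fit was not tested. Cox4i2, Eln and Tagln stayed called in ob/ob-Veh, at -3.49, 4.26 and 3.25. The falls of Acta2 and Tagln in ob/ob-Rosi were not called there, at -2.07 and -0.75 (adjusted p = 0.102 and 0.684 in edgeR), while Tpm2, Flna and Mylk fell by 2.70, 2.22 and 1.97 (adjusted p = 0.00366, 0.0240 and 0.0448 in edgeR).

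Among the genes of largest change outside the marker lists were leading genes of the fibroblast-led and endothelial-led barcodes. In ob/ob-Veh, Sult1e1, an oestrogen sulfotransferase that was among the leading genes of the fibroblast-led barcodes, was at least 21.0-fold higher, with 0 and 0, 946 and 2057, and 0 and 0 CPM in the 3 groups. Aebp1, Gdf10, Man2a1, Adamts5 and Col6a5 were at least 11.4, 9.39, 8.82, 7.10 and 6.75-fold higher, each at 0 in the tested WT-Veh library. Penk, Ccdc80 and Egfr were at least 5.72, 5.84 and 4.46-fold higher. Aebp1 and Gdf10 are leading genes of the fibroblast-led barcodes too. Among pericyte-like and smooth-muscle-like barcodes alone Man2a1 was not called, and the other genes named here as higher were not tested. Besides Plin2 and Cox4i2, given above, the genes of largest fall were Ctla2a and Rgcc, which are leading genes of the endothelial-led barcodes, Ccl9, Cxcl2, Rbp7, Fabp5, Bzw2 and Car4. Car4, carbonic anhydrase of capillary endothelium, was at least 12.6-fold lower. Ccl9 and Cxcl2, chemokines of macrophages, were lower with ratios of 40.8 (counting interval 13.0 to 206) and 42.2 (10.7 to 365). The macrophage list itself had 14 of 16 genes lower in ob/ob-Veh and 11 higher in ob/ob-Rosi, and the endothelial list 2 of 7 lower and 3 higher. Of all genes tested, 3.71% were lower in the first contrast and 2.78% higher in the second.

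In ob/ob-Rosi relative to ob/ob-Veh several of these genes changed in the opposite direction. Ctla2a, Rgcc and Aqp1 are leading genes of the endothelial-led barcodes, which numbered 1 and 0 in ob/ob-Veh and 3 and 10 in ob/ob-Rosi eWAT. These genes and Ly6c1 were not tested among pericyte-like and smooth-muscle-like barcodes alone. Ctla2a was higher with a ratio of 73.5 (counting interval 12.8 to 2942), Rgcc with 12.1 (3.83 to 61.3) and Cxcl2 with 19.1 (4.95 to 163). The log2 change of Rgcc ran from 2.08 (without ob/ob-Rosi replicate 2) to 6.81 (without ob/ob-Veh replicate 2), and that of Cxcl2 was 2.59 without ob/ob-Rosi replicate 1. Ccl2, which was not called between WT-Veh and ob/ob-Veh, was higher with a ratio of 14.2 (3.60 to 123), a call lost in each of the 3 fits without 1 library that tested it. The water channel Aqp1 and the surface protein Ly6c1 rose by 2.64 ± 0.65 and 2.61 ± 0.64, and Ctsb, a lysosomal protease, by 2.23 ± 0.53 (adjusted p = 0.00189, 0.00189 and 0.00132 in edgeR). The change of Aqp1 ran from 1.81 (without ob/ob-Veh replicate 1) to 7.68 (without ob/ob-Veh replicate 2), and its call was lost without the first of these or without ob/ob-Rosi replicate 2. That of Ly6c1 ran from 1.29 (without ob/ob-Rosi replicate 2) to 3.19 and was called only without WT-Veh replicate 2 or ob/ob-Rosi replicate 1. Sult1e1 was at least 62.2-fold lower, C2, Ntn4, Lgals7 and Agt at least 9.86, 9.52, 9.52 and 8.50-fold lower. The call of Agt was lost in each of the 3 fits without 1 library that tested it. Col4a5, Penk, Gas6 and Olfml2b were lower with ratios of 36.7, 25.5, 21.9 and 18.9, on 1 or 2 UMIs in ob/ob-Rosi. The log2 change of Olfml2b ran from -6.93 to -3.78 over the 4 fits without 1 library that tested it. The iron carrier Trf fell by 3.85 ± 0.75 (adjusted p = 2.74e-05 in edgeR).

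In ob/ob-Rosi relative to WT-Veh, 8 genes were higher (0.618%) and 2 lower (0.155%; 0.773% called), with 59 and 26 at an unadjusted p under 0.05, and DESeq2 called 0. Without ob/ob-Veh or ob/ob-Rosi replicates, 1 at a time, 0 to 5 genes were called. Acta2 was at least 10.1-fold higher, Ly6a at least 4.26-fold, Aebp1 at least 3.48-fold and Man2a1 at least 3.03-fold. The calls of Ly6a, Aebp1 and Man2a1, and that of Dcn given below, were lost in each of the 4 fits without 1 library. The long noncoding RNA Meg3 was higher with a ratio of 14.3 (counting interval 3.84 to 120.0), and its log2 change was 1.82 without ob/ob-Rosi replicate 2. Mgp and Dcn rose and Plin2 and Ccl9 fell, Ccl9 by 2.85 ± 0.68 (adjusted p = 0.0112 in edgeR). Among pericyte-like and smooth-muscle-like barcodes alone Mgp, Dcn and Plin2 were not called in this contrast, at 2.45, -0.43 and -0.75 (adjusted p = 0.142, 1 and 1 in edgeR). Fitted over both depots with 8 libraries, 38 genes rose (2.62%) and 51 fell (3.52%) in ob/ob-Veh of 1450 tested (6.14% called). In ob/ob-Rosi 56 rose (3.86%) and 31 fell (2.14%) relative to ob/ob-Veh (6% called), and 20 rose (1.38%) and 5 fell (0.345%) relative to WT-Veh (1.72% called). Each iWAT group had 1 library there, so the spread came from eWAT. Contractile genes had 5 of 15 higher in the first contrast and 2 lower in the second. Cox4i2 was the pericyte gene called in both, with Ndufa4l2 higher in the second. Without ob/ob-Veh eWAT replicate 2 or ob/ob-Rosi eWAT replicate 2, 0 genes were called in any of the 3.

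The smooth muscle genes Tagln and Myl9 were lower in the iWAT members than in the eWAT members, which held all 17 smooth-muscle-like barcodes. These differences cannot be told apart from which contractile barcodes the rule let in. Averaged over groups, 17 genes were higher in iWAT (1.17%) and 17 lower (1.17%) of 1450 tested (2.34% called). Tagln gave 0 to 63.3 CPM in the 6 iWAT libraries, gave 0 and 308, 2309 and 3439, and 139.7 and 1583 in the eWAT libraries, and fell by 5.54 ± 0.73 in iWAT (adjusted p = 8.65e-11 in edgeR). Myl9 fell by 2.39 ± 0.54 and Vim, the intermediate filament of mesenchymal cells, by 1.49 ± 0.39 (adjusted p = 0.00107 and 0.00961 in edgeR). Lmna, a nuclear lamin, fell by 3.71 ± 0.88 (adjusted p = 0.00257 in edgeR). Of 15 contractile genes tested 2 were called lower and 0 higher, and Acta2, with 1 UMI in the tested iWAT libraries, was not called. Of 14 pericyte genes tested edgeR called 0, with 1 lower at an unadjusted p under 0.05 and a median of -0.39 against -0.14 over all genes. Without ob/ob-Veh eWAT replicate 2 or ob/ob-Rosi eWAT replicate 2, 0 genes were called between depots, and DESeq2 called 2. The change from WT-Veh to ob/ob-Veh differed between depots for 7 genes in edgeR (0.483% called), 2 with the higher value in iWAT (0.138%) and 5 with the lower (0.345%). The change from ob/ob-Veh to ob/ob-Rosi differed for 3 genes, all with the higher value in iWAT (0.207% called), again on 1 library per iWAT group.

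Of 10 endothelial list genes tested, 6 were called higher in the iWAT members and 0 lower, where 1.17% of all genes were called in each direction, with a median of 2.23. The VEGF receptors Flt1 and Kdr rose by 2.60 ± 0.45 and 2.28 ± 0.47 (adjusted p = 6.20e-06 and 3.21e-04 in edgeR), and S1pr1, the sphingosine phosphate receptor of endothelium, by 2.33 ± 0.57 (adjusted p = 0.00381 in edgeR). Ednrb rose by 2.70 ± 0.59 and Mgll, which splits monoglycerides, by 1.87 ± 0.41 (adjusted p = 7.52e-04 and 7.46e-04 in edgeR). The change of Mgll was 3.94 without ob/ob-Veh eWAT replicate 2. The adhesion receptors Adgrg1, Adgrl4 and Adgrf5 and Ushbp1 were higher too, by 3.09, 2.36, 1.24 and 2.99. The calls of Adgrg1, Adgrf5 and Ushbp1 were lost in each of the 4 fits without 1 library. The endothelial list gave 6.58 UMIs per 1000 in iWAT and 2.37 in eWAT on average (exact permutation p = 0.0556, the smallest possible), with 52 of 66 iWAT and 16 of 89 eWAT members endothelial-led. Over all kept barcodes Acta2 stood at 5.76 CPM in iWAT and 21.8 in eWAT, and Rgs5 at 63.5 and 38.1. The iWAT files held no barcode above 22000 UMIs or 25% mitochondrial UMIs and the eWAT files did, and the same limits were then applied to both.

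Some contractile genes changed differently in the eWAT members than in the comparison sets of the same libraries. The interaction of cell type and group was tested with the library as a block. The comparison sets, defined above, lack barcodes rich in the marker genes of the rule. Smooth-muscle-like members numbered 0 and 0 in WT-Veh, 6 and 6 in ob/ob-Veh and 1 and 4 in ob/ob-Rosi. Against either set, the contractile differences thus cannot be told apart from which contractile barcodes the rule let in. Against the stromal set, 48 genes changed more towards higher (0.395%) and 8 towards lower (0.0658%) in members between WT-Veh and ob/ob-Veh, of 12158 tested (0.461% called). Between ob/ob-Veh and ob/ob-Rosi these were 8 (0.0658%) and 30 (0.247%; 0.313% called; 14 and 29 with library size alone). Of 23 contractile genes 6 were among the higher in the first and 6 among the lower in the second. Of 34 fibrillar matrix genes 9 were among the higher in the first and 3 among the lower in the second. Tagln differed by 7.63 ± 0.78 and -6.74 ± 0.59, Tpm2 by 5.98 ± 0.82 and -4.58 ± 0.56, and Acta2 by -6.41 ± 0.60 in the second, each called in edgeR. Each value is the log2 change in members minus that in stromal barcodes, and is not the size of a change in members. In the fit of members alone Tagln changed by 3.33 and -1.79, and Acta2 by -2.85 in the second. The endothelin receptor Ednra and the nitric oxide receptor subunit Gucy1b1 differed by 5.89 and 4.80 in the first, and were named after these values were seen. Ednra had few UMIs in the members, as its wide intervals above show, so its value says little of size.

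Against the endothelial set, 18 genes were higher (0.184%) and 21 lower (0.215%) of 9785 in the first contrast (0.399% called; 17 and 30 with library size alone), and 11 (0.112%) and 16 (0.164%) in the second (0.276% called; 28 and 16 with library size alone). Of 20 contractile genes 5 and 7 were called, in the same directions, and of 34 fibrillar matrix genes 5 and 2. Tpm1 differed by 4.66 ± 0.83 and -2.09 ± 0.51, and Eln by 3.89 ± 0.99 and -3.24 ± 0.71. Acta2 and Tagln differed by -4.66 ± 0.67 and -3.96 ± 0.58 in the second, and Tagln was not called in the first (3.02 ± 0.89, adjusted p = 0.116 in edgeR). Plin2 did not pass this test in any of the 4 interactions, at -1.32 and -0.58 against stromal and -1.73 and 0.56 against endothelial barcodes (adjusted p = 0.294 or above in edgeR), and no difference from those cells was shown.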

How the data were processed

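The authors prepared 10x Genomics 3' v3.1 libraries and, per the labels, deposited raw UMI counts per gene and barcode from Cell Ranger 3.0.2 on mm10, with 31053 genes; the counts were not normalized. Barcodes were filtered and members chosen by raw UMIs as described, and doublets were scored with Scrublet but kept. Members were clustered with scanpy 1.11.5 (2000 variable genes, 15 components, 20 neighbours, Leiden resolution 0.5). Gene tests used edgeR 4.0.16 (TMM scaling, filterByExpr, quasi-likelihood) on counts summed per library and were tested on simulated data. A minimum of 20 members left no contrast, so the lower minimum of 5, set down with it as an alternative, is reported. Shares were compared by exact two-sided permutation over libraries within depot or group. DESeq2 1.42.0, library size alone, no filter on low counts, thinning to 700 UMIs, stricter rules, the replicate block and leaving out each library were alternatives. No minimum, the pericyte-like and smooth-muscle-like fit and the endothelial measure were added after seeing the data. The members and gene lists were chosen with earlier results of these data known. Genes were named if among the 10 largest called changes per direction at 50 CPM or more without overlap between groups, leaving out other cell types' markers, or if in a fixed set or among up to 4 called members of a list; pathway genes given by sub-cluster, Igfbp5 and the interactions were named after their values were seen. Libraries held 20132553 to 92475986 UMIs, and the members of a library as few as 2884, which limits what low counts can show. Intervals cover counting error only. The SE after each ± is the absolute log2 change over the square root of edgeR's F, and is no direct spread between libraries. Nothing in the labels ties a replicate number to 1 mouse across depots. Gene positions are from GENCODE vM21 (GRCm38) and promoter windows from RefSeq (GRCm38.p6).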

Additional observations from a re-analysis of the deposited data

Results flagged for a closer look

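Between the depots, 7 genes differed in the change from WT-Veh to ob/ob-Veh in the members (0.483% of 1450 called by edgeR) and 3 in the change from ob/ob-Veh to ob/ob-Rosi (0.207%). Values are the fitted log2 change in iWAT minus that in eWAT. Each iWAT group was 1 library, DESeq2 called 0 in both (8 higher and 14 lower, and 8 higher and 2 lower, before adjustment at p under 0.05). In edgeR, leaving out any 1 of 5 libraries (ob/ob-Veh or ob/ob-Rosi in eWAT, or ob/ob-Rosi replicate 2 in iWAT) left 0 calls in the first contrast, and the second had 0 without ob/ob-Veh or ob/ob-Rosi eWAT replicate 2 and 5 without WT-Veh iWAT replicate 2. Values resting on groups at 0 depend on the prior count and are no measure of size. In the first contrast the value was -10.95 for Thbd, -8.30 for Ly6a, -5.03 for Retnla, -14.30 for Man2a1 and -14.76 for Tm9sf3, and it was 4.50 for H2-Aa and 9.81 for H2-Eb1, both antigen presentation genes of the macrophage list. In the second contrast it was 5.87 for Igfbp5, 4.03 for Dcn and 4.40 for Egr1.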

How the results depend on the processing

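Few members limit every result: WT-Veh in eWAT was 1 tested library of 11 barcodes, iWAT alone left no residual degree of freedom at the minimum of 5, and gene fits under the stricter rules, for pericyte-like barcodes alone or with a minimum of 20 could not be made. Where a library was left alone in its group, the spread was taken from the remaining groups. With no minimum, edgeR called 0, 0 and 1 of 365 genes in the 3 iWAT contrasts (13 higher and 9 lower, 19 and 27, and 11 and 12 before adjustment at p under 0.05). The cause of the shifts below was not tested.

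In eWAT, ob/ob-Veh against WT-Veh called 32 genes by DESeq2, 61 with no filter, 71 without likely doublets, 38 in pericyte-like and smooth-muscle-like barcodes and 4 after thinning. ob/ob-Rosi against ob/ob-Veh called 18, 63 with no filter, 55 with no minimum, 29 in the pericyte-like and smooth-muscle-like barcodes and 8 after thinning. ob/ob-Rosi against WT-Veh called 0 by DESeq2, with no filter, with no minimum and after thinning, 16 with the replicate block, 5 without doublets, 1 in the pericyte-like and smooth-muscle-like barcodes and 6 with both depots fitted together. Over both depots the 3 contrasts called 16, 16 and 3 by DESeq2, 48, 30 and 7 with no minimum and 0 each after thinning, and the first 2 called 32 and 49 with no filter. The depot difference called 2 by DESeq2, 14 with no filter, 20 with no minimum and 0 after thinning, and the depot interactions 0, 1, 0 and 0 each. Against stromal barcodes DESeq2 called 28 and 14, and against endothelial barcodes 4 and 1, with 44 in the second by library size alone.

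The share of members in ob/ob-Rosi against ob/ob-Veh was -0.00464 among barcodes with no UMI of 8 other cell type genes, a reversal. Only 8 of the 155 members were left there in all libraries, too few to show a direction. The depot log2 ratio to endothelial barcodes was -1.50 under the stricter rule, -1.38 with those 8 genes and -1.18 after thinning. The depot contractile difference was -0.651 with no minimum. Dcn turned to -0.25 in ob/ob-Veh and -0.43 in ob/ob-Rosi against WT-Veh in the pericyte-like and smooth-muscle-like barcodes.

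Leaving out 1 library, eWAT calls ran from 0 to 121, 1 to 90 and 0 to 5 in the 3 contrasts, those over both depots from 0 to 61, 0 to 86 and 0 to 23, the depot calls from 0 to 23 and the interactions from 0 to 0 and 0 to 5. Calls against stromal barcodes ran from 32 to 45 and 16 to 37, and against endothelial barcodes from 14 to 50 and 9 to 35. The member share ran from -0.00476 (without WT-Veh eWAT replicate 1) to 0.0734, 0.0295 to 0.170, 0.0638 to 0.205 and, for depot, -0.134 to -0.0400. The log2 ratio ran from 1.24 to 2.24, -1.40 to 0.390 (without ob/ob-Rosi iWAT replicate 1), 0.336 to 2.13 and -2.47 to -1.28. The contractile share ran from 0.0762 to 1.51, -1.30 to -0.560, 0.0427 to 0.232 and -0.934 to -0.218, and the endothelial measure from -4.30 to -3.49, 2.69 to 2.95, -1.29 to -0.793 and 4.00 to 4.40. The numbers could be checked as pairs only for ob/ob-Veh with ob/ob-Rosi in eWAT, since the other groups had 1 tested library each; the differences between replicates 2 and 1 had a correlation of 0.0534 over 1454 genes, and the numbers were not treated as pairs; with the replicate block the eWAT contrasts called 67 higher and 44 lower, 37 and 71, and 11 and 5.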
